A study of Drosophila melanogaster with 4 samples.

Results

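The innexin family, the genes for the gap junction proteins of flies, was followed in ovary follicle cells of Drosophila melanogaster. Its 8 members, ogre, inx2, inx3, zpg, inx5, inx6, inx7 and shakB, were taken by name from the authors' deposited table of 15682 genes, and all 8 were in it. Follicle cells are the somatic epithelium around the germ line. The EGFR-activated group carried 2 transgenes under UAS control, EGFR-lambdatop, a constitutively active epidermal growth factor receptor, and the membrane marker CD8-GFP. The Control group carried UAS-CD8-GFP alone. Each group had 2 libraries, which the submitters call biological replicates. All flies were reared at 18 °C, moved to 29 °C as adults and dissected 7 to 10 days later. Which driver switched the transgenes on is not given in the sources used. No values per library entered a comparison, so levels are means of normalised counts over all 4 libraries. Each fold change is the log2 of EGFR-activated over Control, with the standard error (SE) of the authors' fit. A gene was called higher or lower where the authors' DESeq2 Wald test, adjusted over all genes tested, gave an adjusted p under 0.05.

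An innexin protein crosses the membrane several times and assembles with others into a hemichannel, which docks with a hemichannel of the next cell. The pore lets ions and small signals such as calcium and inositol trisphosphate pass between cells. Innexins do the work of the vertebrate connexins but are not related to them in sequence. In the ovary they couple follicle cells to each other, and they couple the somatic cells to the germ line, where they are needed for germ cells to survive and develop.

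The family divided into a highly expressed group and a set of low genes. The 3 members known from fly epithelia, inx2, inx3 and ogre, made up 97.9% of the family's summed mean normalised count of 47267. By count inx2 came first, with a mean of 24350 in the authors' deposited table, then inx3 with 11841 and ogre with 10092. Levels per kilobase of annotated exon put inx3 first, at 5282, ahead of inx2 at 4443.5 and ogre at 2561. These 3 genes ranked 244th, 295th and 559th per kilobase among the 12537 genes with reads and a known length. The order of inx2 and inx3 therefore depended on whether length was taken into account. No spread between libraries is given for these levels, so it was not tested whether neighbours in the order differ.

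The other members were lower. The level of inx7, an innexin studied in the nervous system, was 426 per kilobase (mean normalised count 696). The germ line innexin zpg stood at 166 per kilobase (mean normalised count 255). The remaining genes were the lowest, with few reads or none. The electrical synapse gene shakB had 1.62 per kilobase, from a mean normalised count of 29.7 in the authors' deposited table, and inx5 had 1.43, from 2.60. The low means resolved into 104 reads for shakB and 9 for inx5 over all 4 libraries. The exonic length of shakB is the longest of the family, 18308 bp over 8 annotated transcripts, and per kilobase of its longest transcript it stood at 1.99. A mean of 0 was listed for inx6. A limit of 3 reads over all libraries, which covers counting error only, would give inx6 a mean normalised count of at most 0.971.

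**Figure D1:**
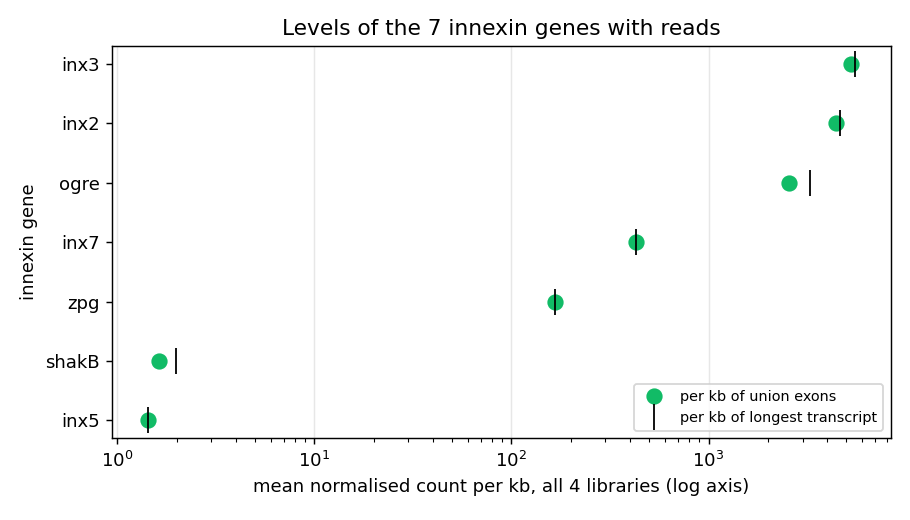
Mean normalised count per kilobase (log axis) of the 7 innexin genes with reads, averaged over all 4 libraries. Circles use the union of annotated exons and vertical ticks the longest annotated transcript; inx3, inx2 and ogre lie between 2561 and 5282 on the first scale, shakB and inx5 between 1.43 and 1.62, and inx6, listed at 0, is not drawn.

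Of the 6 members with an adjusted p, 2 rose in EGFR-activated cells, inx7 and ogre, 1 fell, shakB, and 3 did not pass the test. Of all 9409 genes tested 35.5% were called, 18.0% higher and 17.5% lower. The members' share, 3 of 6, rests on too few genes to be set apart from that background. The median fold change of the 7 members with a value was 0.02, and that of the 12650 genes with a p-value was 0.01. In bulk RNA, fewer cells of a type and less RNA per cell cannot be told apart.

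**Figure D2:**
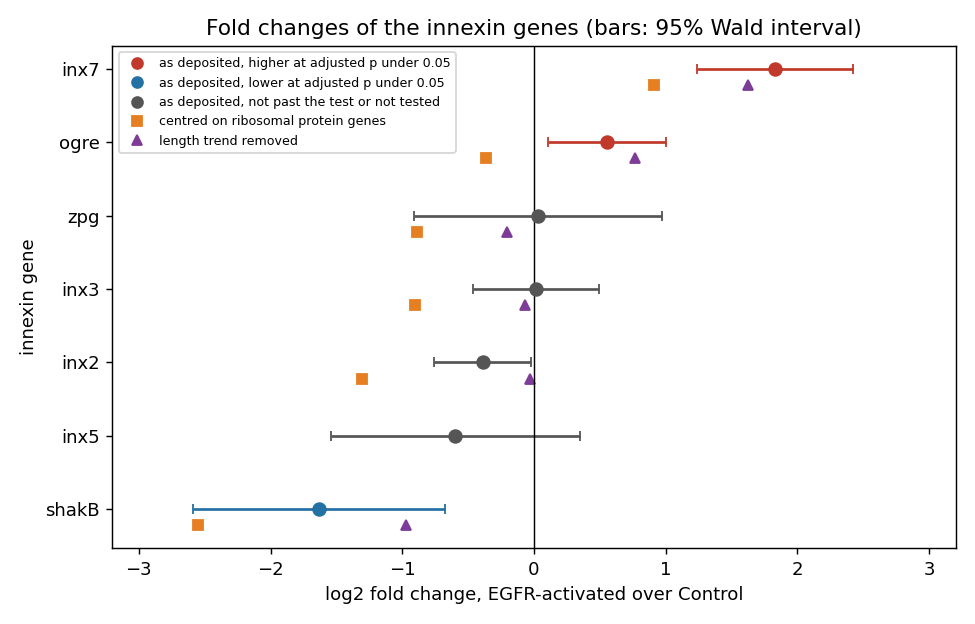
Log2 fold changes of the 7 innexin genes with a value, EGFR-activated over Control, with 95% Wald intervals as bars and colours for the calls at an adjusted p under 0.05. Squares show values centred on the ribosomal protein genes. Triangles show values with the trend on length removed over all genes with an adjusted p, the alternative added after seeing the data. On every scale inx7 is positive, while ogre lies at 0.56 as deposited and at -0.36 when set against the ribosomal protein genes.

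The largest rise was that of inx7. In mushroom body circuits of the adult brain inx7 contributes to electrical coupling. Its log2 fold change was 1.83 ± 0.30 in the authors' deposited table (DESeq2 adjusted p = 3.76e-08), a 3.56-fold higher level with a 95% interval of 2.36 to 5.37. By fold change it ranked 42nd from the top of the 9409 genes tested. The gene is short, 1634 bp of exon, and genes of that length had a trend value of 0.28, above 0. With the trend removed inx7 was at 1.55 (adjusted p = 5.05e-06). That fit, used also for ogre, inx2 and inx3 below, covers genes with a mean of at least 50. Set against the ribosomal protein genes, whose median lay at 0.92, it was at 0.91 (adjusted p = 0.00556). It passed the test on both scales. The ribosomal centring takes that median from every gene, so all values move down, and it leaves each SE as it was. Among all genes tested 18.0% were higher and 17.5% lower. Of 8 neuron and glia markers tested, 0 were higher and 3 were lower by the authors' DESeq2 test. At an unadjusted p under 0.05, 0 were higher. Their mean normalised counts ran from 9.58 for para to 5371 for Syx1A. The part of neuronal RNA in the value of inx7 was not tested.

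The second rise, that of ogre, was small. The product of ogre, also called Innexin 1, is needed for growth of the optic lobes and works in glia together with Inx2. Its fold change was 0.56 ± 0.23 (adjusted p = 0.0443) in the authors' deposited table, or 1.47-fold with a 95% interval of 1.08 to 2.01. That adjusted p lies just under the threshold. The call ended without the filter on low means (adjusted p = 0.0593). The direction turned with values centred on ribosomal protein genes (-0.36, adjusted p = 0.168), a centring that lowers every gene by 0.92. With the length trend removed it was at 0.74 and passed (adjusted p = 0.00686).

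The most abundant member by count, inx2, encodes the innexin that epithelia need for their organisation and that faces zpg in junctions between soma and germ line. In the authors' deposited table it stood at -0.39 ± 0.19 (adjusted p = 0.0946) and did not pass. The 95% interval of the linear fold, 0.592 to 0.987, left out 1 before adjustment over the table. The gene's SE was among the smallest at its level, below those of all but 7.41% of the 270 genes with a mean within 2-fold of its own. After removal of the length trend inx2 was at -0.05. Centred on the ribosomal protein genes it was at -1.31 and passed the test (adjusted p = 3.71e-11). On that scale every gene moves down by 0.92, and of all 9409 genes 5282 were called lower and 96 higher. For inx3, whose protein forms mixed channels with Inx2 and ogre, the fold change was 0.02 ± 0.25 (adjusted p = 0.971), with a 95% interval of 0.724 to 1.41 for the linear fold. It was at -0.12 after removal of the length trend, and at -0.90 and past the test (adjusted p = 0.000633) against the ribosomal protein genes.

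The 3 abundant epithelial genes did not have the same fold change. The difference between ogre and inx2 was 0.94 on the log2 scale, with a 95% interval of 0.36 to 1.53 when the errors of the 2 genes are taken as independent. A common centring leaves such a difference as it is. The intervals for ogre over inx3, a difference of 0.54, and inx3 over inx2, a difference of 0.40, both included 0. The value of inx7 stood above that of ogre by 1.28, with an interval of 0.53 to 2.02, and above that of inx2 by 2.22, with an interval of 1.52 to 2.92. Of all 15 pairs among the 6 tested members, the interval left out 0 in 10 and included it in 5. These counts hold on the deposited scale only. Removal of the length trend moves members by unlike amounts, shakB most, from -1.63 to -0.97. The pairs, those with shakB among them, were not recomputed on that scale. The members were chosen with these values known, so the pairs are a description and carry no p.

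**Figure D3:**
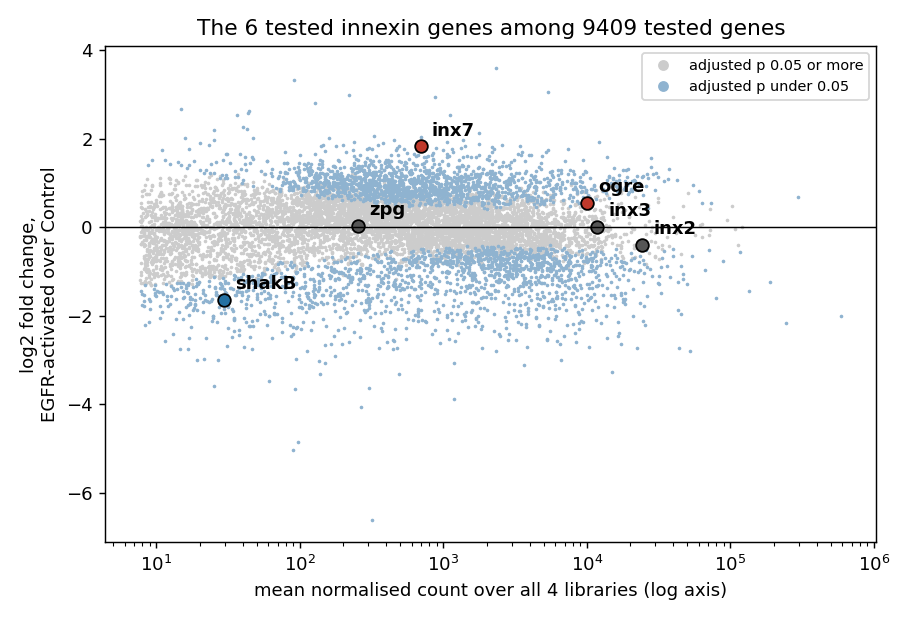
Log2 fold change, EGFR-activated over Control, against the mean normalised count over all 4 libraries (log axis) for the 9409 genes tested, with the 6 tested innexin genes marked. At a mean of 696, inx7 lies at 1.83 near the upper edge of the cloud, while inx2, inx3 and ogre lie between -0.39 and 0.56 at means of 10092 to 24350.

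Germ line innexin zpg is needed in early germ cells, which are lost or fail to differentiate without it. Its fold change was 0.03 ± 0.48 (DESeq2 adjusted p = 0.968) in the authors' deposited table. The 95% interval of the linear fold was 0.533 to 1.97, so changes within those bounds are not excluded. The SE of zpg was larger than that of 92.3% of the 2242 genes with a mean within 2-fold of its own, whose median SE was 0.30. The SEs of 14 germ line markers ran from 0.21 to 0.51. The fold change of vas was -0.05 ± 0.48 and that of nos 0.22 ± 0.49 in the authors' deposited table. The oocyte determinant osk was at 0.46 ± 0.51, and bam, the switch to germ cell differentiation, was at -0.17 ± 0.46. None of these 4, named after their values were seen, passed the test. All 14 germ line markers had reads, with a summed mean normalised count of 39625 and a median SE of 0.45. The largest parts of that sum were tud at 11759 and piwi at 9123. Those of osk, vas, nos and bam were 4500, 1337, 306 and 128. In the authors' deposited table piwi, which follicle cells also express, rose (0.91 ± 0.30), tud (-0.52 ± 0.21) and stau (-0.53 ± 0.21) fell, and the other 11 did not pass. Among all genes tested 18.0% were higher and 17.5% lower. The amount of germ line RNA in each group cannot be read from the table, and its part in the value of zpg was not tested.

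The fall was that of shakB, the gene of the electrical synapses of the giant fibre escape circuit. Its fold change was -1.63 ± 0.49 in the authors' deposited table (DESeq2 adjusted p = 0.00420), a 3.09-fold lower level with a 95% interval of 1.59 to 6.01. The value rests on 104 reads. It is also the member that gene length touched most, since genes as long as shakB had a trend value of -0.66. With that trend removed over all genes with an adjusted p, shakB was at -0.97 and no longer passed (adjusted p = 0.130). Some genes listed as markers of other cells were also lower, where 17.5% of all genes tested were. Of 12 muscle sheath markers 9 fell and 0 rose, with 0 higher at an unadjusted p under 0.05 and a median of -1.15. Of 8 neuron and glia markers tested 3 fell, moody (-1.24 ± 0.23), cpx (-1.83 ± 0.39) and Syx1A (-1.10 ± 0.28) in the authors' deposited table. Of 7 trachea markers 3 fell, among them serp (-2.91 ± 0.29) and btl (-1.90 ± 0.35) in the authors' deposited table. Of 5 hemocyte and fat body markers tested 3 fell, Rfabg (-2.00 ± 0.22), srp (-1.53 ± 0.25) and Lsp2 (-1.67 ± 0.31) in the authors' deposited table. The hemocyte genes Hml and Ppn were at -0.10 ± 0.52 and -0.18 ± 0.41 and did not pass, and Fbp1 was listed at 0. Levels within these lists differed widely. Mean normalised counts were 10078 for srp, 5848 for Lsp2 and 3228 for Rfabg, against 194 for Ppn, 36.0 for Hml and 7.03 for nimC1. They were 865 for btl and 175 for serp, against 3.30 for trh, and ran from 53.9 to 29906 in the muscle sheath list. The follicle cell marker tj was at 10707. The mean normalised counts of all 10 neuron and glia markers ran from 2.54 to 5371. They were 5371 for Syx1A, 3980 for moody, 1945 for elav, 906 for Gs2 and 114.9 for cpx, against 39.9 for n-syb, 27.0 for brp, 9.58 for para, 2.80 for Syt1 and 2.54 for repo. The part of other cells in the value of shakB was not tested.

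The last members gave no call. A fold change of -0.60 ± 0.48 (Wald test p = 0.216) was listed for inx5 in the authors' deposited table, from 9 reads and with no adjusted p. At this depth a change of inx5 can be neither stated nor excluded. For inx6, which works in the same memory circuits of the brain as inx7, the table lists a mean of 0 and no fold change.

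Both members that rose are neighbours on the X chromosome. In the BDGP6 annotation, used here for names and order only because the counts were made on BDGP5, ogre and inx7 follow each other on the same strand. The noncoding gene CR43837 lies between inx7 and inx2, and inx2 lies on the opposite strand. Along this row the fold changes in the authors' deposited table were 0.56 ± 0.23 for ogre, 1.83 ± 0.30 for inx7, 0.70 ± 0.32 for CR43837 and -0.39 ± 0.19 for inx2. The genes on either side of the row, CG3040 and cm, were at 0.37 ± 0.35 and 0.14 ± 0.28 and did not pass. Adjacent genes of this cluster thus ranged from a called rise to a value below 0 that was not called.

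Several members share their place with another gene. The gene bou, which is needed to form septate junctions, overlaps the bounds of ogre on the opposite strand. Its fold change of 0.51 ± 0.25 in the authors' deposited table was close to that of ogre but did not pass the test. For inx3 the gene with overlapping bounds is spg, a regulator of small GTPases, which fell (-0.94 ± 0.19, adjusted p = 7.54e-06) while inx3 was at 0.02. For zpg it is CG8368, which rose (0.61 ± 0.22, adjusted p = 0.0224) while zpg was at 0.03. The annotated exons of these 3 pairs do not overlap. Exons of ogre do overlap those of the antisense noncoding gene lncRNA:CR44084, which was not matched to a row of the table. Whether reads were counted by strand is not given in the sources used, so antisense reads from there cannot be told apart from those of ogre. Exons of inx5 overlap those of mir-4959, on the same strand and listed at a mean of 0, and of a further noncoding gene not matched to a row. Several genes lie within or across the bounds of shakB without exon overlap, with mean normalised counts of at most 4.05. Their part in the values of inx5 and shakB was not tested.

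**Figure D4:**
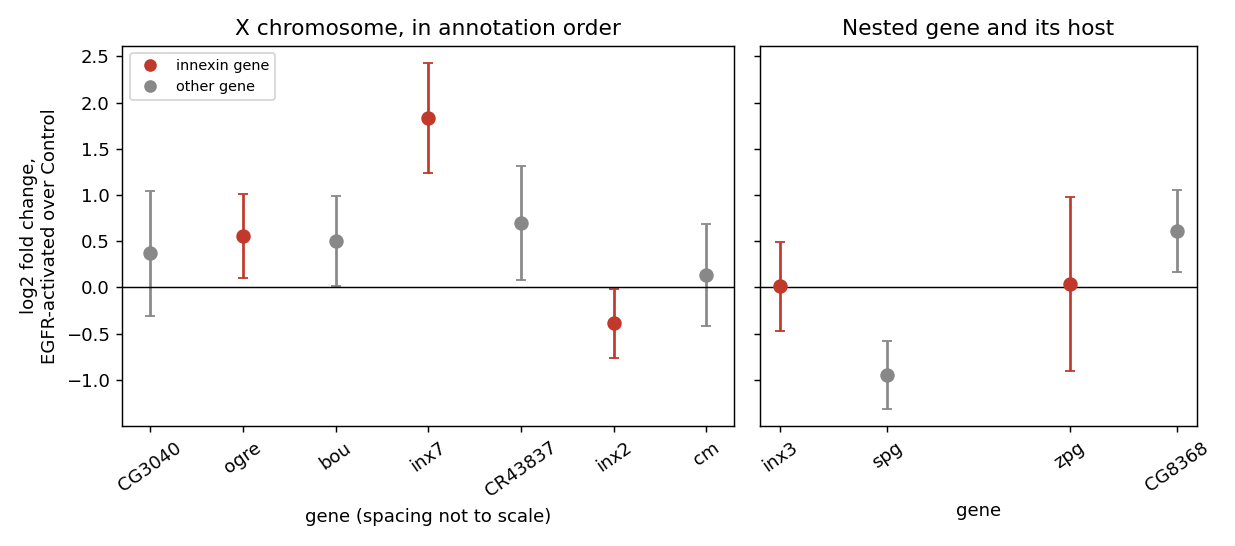
Log2 fold changes, EGFR-activated over Control, with 95% Wald intervals for genes beside or around the innexin genes, with innexin genes in red and other genes in grey. Left, the X chromosome row from CG3040 to cm in annotation order, where inx7 at 1.83 stands above all its neighbours drawn and inx2 is the lowest at -0.39. Right, inx3 and zpg beside spg and CG8368, the genes whose bounds overlap theirs.

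Other junction genes were set beside the innexins, against a background of 17.5% lower and 18.0% higher among all genes tested. Septate junctions, which seal the space between epithelial cells, are built from many proteins: of 22 of their genes 19 fell, 0 rose and 3 did not pass, with a median of -1.36 against 0.01 over all genes. At an unadjusted p under 0.05, 1 was higher, bou. With the length trend removed, 18 of the 22 were lower and 0 higher, with a median of -1.19. The lowest adjusted p values in the list belonged to Mcr (-1.51 ± 0.18), CG3921 (-1.59 ± 0.19), Gli (-1.69 ± 0.22) and cold (-1.31 ± 0.18) in the authors' deposited table. None of the 3 abundant innexins passed in that direction. The difference between the families was not tested as such. Of 12 genes of adherens junctions 4 fell and 0 rose, with 0 higher also at an unadjusted p under 0.05, and the median was -0.10. The E-cadherin gene shg fell (-0.72 ± 0.26), as did cno (-1.18 ± 0.25), Vinc (-0.93 ± 0.31) and jub (-0.57 ± 0.21) in the authors' deposited table. The catenin genes arm, alpha-Cat and p120ctn were at 0.00 ± 0.21, -0.08 ± 0.23 and 0.02 ± 0.27, close to inx3, and did not pass. With the length trend removed, 2 of the 12 were lower and 3 higher.

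Calcium and inositol trisphosphate are among the signals that gap junctions pass. Of 15 genes of calcium release and entry 3 fell, 0 rose and 12 did not pass, with 0 higher at an unadjusted p under 0.05 and a median of -0.19. That number of lower genes is close to what the 17.5% of all genes would give. The receptor that opens calcium stores, Itp-r83A, was at -1.07 ± 0.19 (adjusted p = 6.47e-07) in the authors' deposited table. The phospholipase genes norpA and Plc21C, whose enzymes make inositol trisphosphate, also fell (-1.07 ± 0.23 and -1.15 ± 0.25). The store pump gene Ca-P60A was at -0.03 ± 0.24, the store sensor gene Stim at -0.19 ± 0.24 and the entry channel gene olf186-F at 0.52 ± 0.32, none of them past it. With the length trend removed, 3 of the 15 were lower and 2 higher.

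Cells coupled by gap junctions share their membrane potential. Of 20 tested genes of ion transport 9 fell, 0 rose and 11 did not pass. At an unadjusted p under 0.05, 1 was higher, and the median was -0.80 over the 22 with a value. Among all genes tested 17.5% were lower and 18.0% higher. The sodium pump subunit genes Atpalpha and nrv2, also counted among septate junction genes, were at -1.23 ± 0.24 and -1.11 ± 0.28 in the authors' deposited table. The cotransporter genes Ncc69 (-1.84 ± 0.27) and CG31547 (-1.95 ± 0.43) fell, and so did the potassium channel gene Ir (-0.95 ± 0.19). With the length trend removed, 6 of the 18 members with a corrected value were lower.

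**Figure D5:**
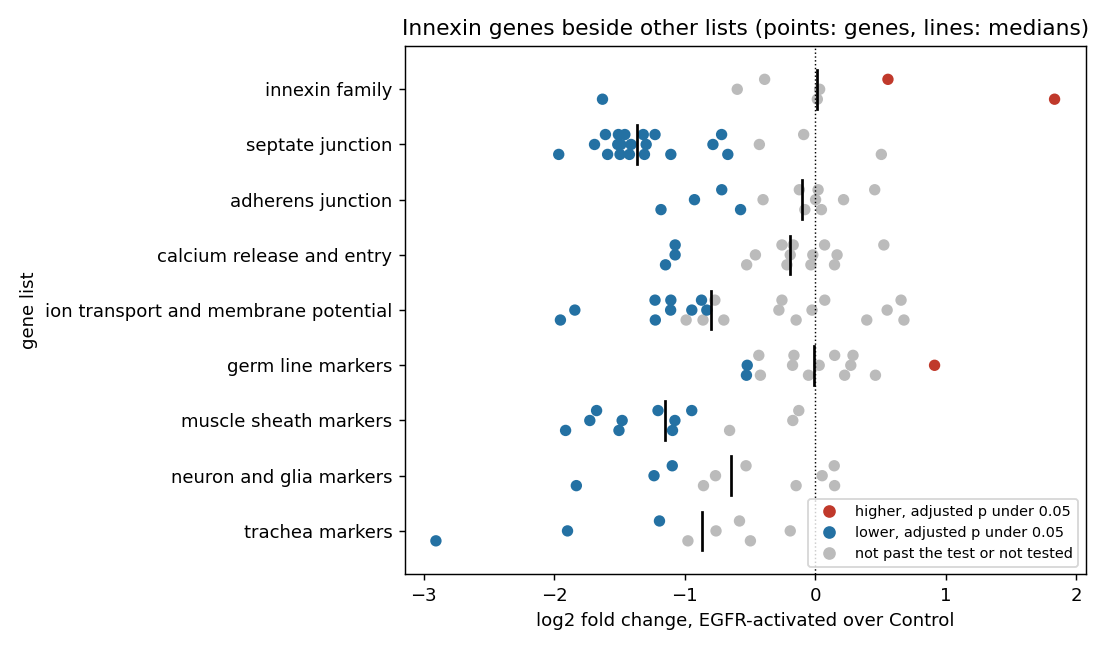
Log2 fold changes, EGFR-activated over Control, of the 7 innexin genes with a value and of the members of 8 other lists, 1 point a gene, with the median as a vertical line and calls at an adjusted p under 0.05 in colour. The innexin points spread from -1.63 to 1.83 around a median of 0.02, whereas 19 of the 22 septate junction genes lie in the lower, called range with a median of -1.36.

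Facts of the whole series bear on these values as follows. The follicle cell markers tj, eya and Fas3 had mean normalised counts of 10707, 5802 and 31666, and all 13 markers of the list had reads. Of these 13, 3 rose (Egfr, eya and tj) and 1 fell (Cad74A), where 18.0% of all genes tested rose and 17.5% fell. The value of Egfr was 1.498 ± 0.35 in the authors' deposited table. Only the EGFR-activated group carried EGFR-lambdatop, and reads of that transgene cannot be told apart here from those of the flies' own Egfr gene. Reads outside the counted genes also differed between the groups. The row for alignments that were not unique was at -1.96 ± 0.36 (adjusted p = 7.24e-07) and the row for reads in no gene at -1.31 ± 0.22 (adjusted p = 5.83e-08) in that table, and their part in the values of the innexin genes was not tested. Of all calls 50.8% were higher as deposited, 1.79% when set against the ribosomal protein genes and 40.1% once the length trend was removed in genes at a mean of 50 or more. The sign of ogre turned only with the ribosomal centring. For inx3 and zpg, at 0.02 ± 0.25 and 0.03 ± 0.48 as deposited, no direction is stated. The direction for inx7 and for shakB was the same on every scale tried. The value of inx2 was also below 0 on each, but was not called as deposited.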

How the data were processed

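RNA from 4 libraries of follicle cells was analysed, 2 EGFR-activated and 2 Control. Per the labels' protocols, poly(A) RNA was pulled down with oligo-dT and ScriptSeq v2 was the library kit. The authors used build BDGP5 with TopHat2 2.0.10, HTSeq 0.6.1 and DESeq2 1.2.10, per the submitters' processing notes. The authors' deposited table holds, per the file headers, a mean normalised count (a signal scaled by size factors), a log2 fold change with its standard error, the score of a Wald test, and the p-value before and after adjustment. Library depth is not in that table. The authors' version of DESeq2 draws fold changes toward 0 by default, so values of low genes such as shakB and inx5 may be understated. Left out were 5 rows that stand for no gene. The row for alignments that were not unique held 41.2% of the sum of all means. Columns of other samples numbered 0.

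The members and gene lists were chosen with earlier results of these data known. All 8 members are named. Beyond them, up to 4 members of a list are named. These passed the test with a mean of at least 50 and the smallest adjusted p. Genes are also named where they adjoin or overlap a member, or where they were fixed by name (shg, arm, alpha-Cat, p120ctn, Itp-r83A, Ca-P60A, Stim, olf186-F). The germ line, neuronal, hemocyte, muscle and trachea markers with values outside that rule, and Fas3, were added after their values were seen. Of the 10 lists, all 136 entries were matched, 3 after respelling to older symbols. The planned edgeR test needs counts per library for all genes, which were not used, so the authors' DESeq2 adjusted p served as the test. Intervals are the fold change plus or minus the normal 95% bound of its standard error. Exonic lengths come from the BDGP6 annotation by symbol; 99.2% of the 7887 genes with a mean of at least 50 had one. The length trend is a lowess curve (span 0.3, statsmodels 0.14.6, Python 3.11.15), and p-values were recomputed with Benjamini-Hochberg adjustment. The length correction and a centring on the median of all genes were tried on simulated data, with far fewer changed genes than were called here. The ribosomal centring and the recovery of reads were not part of that trial, and no result rests on it. Alternatives numbered 7, with 1 more added after seeing the data.

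Reads of low members were recovered from their means as whole reads over the 4 size factors, within 1e-08. All 567 distinct means between 20 and 40 had a single solution.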

Additional observations from a re-analysis of the deposited data

How the results depend on the processing

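No paired analysis was possible because the values used are from the authors' comparison, with no values per library; for the same reason no replicate could be left out. As deposited, 2 innexin genes were higher and 1 lower. The count of higher genes was 1 (inx7) at a threshold of 0.01, 1 without the filter on low means and 1 after centring on ribosomal protein genes. The count of lower genes was 2 at a threshold of 0.1, where inx2 joined shakB, and 3 after centring on ribosomal protein genes, where inx2 and inx3 joined it. It was 0 at a minimum mean of 50 and 0 after removal of the length trend among those genes, since shakB lies under that minimum. It was also 0 with the length trend removed over all genes with an adjusted p, the alternative chosen after seeing the data. Centring on the ribosomal protein genes, which takes 0.92 from every gene, turned ogre to -0.36, inx3 to -0.90 and zpg to -0.89. Removal of the length trend turned inx3 to -0.12 and zpg to -0.28 at a mean of at least 50, and to -0.071 and -0.21 over all genes with an adjusted p. Why the ribosomal protein genes lay higher, and why values followed length, was not tested. The call of inx7 was kept under all 8 alternatives, with fold changes from 0.91 to 1.83. Depth limits shakB, inx5 and inx6.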

Other observations

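The means of shakB and inx5 each resolved into 1 set of whole reads over the 4 libraries, which were not assigned to groups or samples here, since no label or column names them. The libraries are called a to d here, with size factors of 1.46, 1.16, 0.786 and 0.773. The reads of shakB were 18 in library a, 10 in b, 27 in c and 49 in d, or 12.3, 8.63, 34.4 and 63.4 after division by the size factors. No library was without shakB reads, and library d held the most. The reads of inx5 were 2 in library a, 0 in b, 2 in c and 5 in d. Library d again held the most, but 9 reads in all are too few to order the libraries.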
